A study of Arabidopsis thaliana with 6 samples.

Results

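ATL8, AKINBETA1 and AT5G38710 are 3 Arabidopsis thaliana genes tied to the handling of low energy supply, and each had a lower transcript signal in the lib mutant than in the wild type. They were chosen as the 3 genes of this kind that earlier work on the same arrays had shown to be lower in lib. Their difference between the genotypes is therefore described here without a test. Each gene has 1 probe set of its own in the platform annotation, so they are 3 of the 13286 genes that can be followed one by one among the 22746 probe sets of the table.

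Plants adjust growth to their sugar supply through the kinase SnRK1, the plant relative of yeast SNF1 and animal AMPK. SnRK1 is a complex of a catalytic alpha subunit with regulatory beta and gamma subunits, and it is active when sugar or light is short. It then switches on genes for the breakdown of storage compounds and amino acids and restrains growth. Transcripts that rise in darkness or sugar starvation are used as readouts of this state.

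AKINBETA1 (AT5G21170) encodes a beta subunit of SnRK1, which holds the kinase and gamma subunits together, and its transcript is known to rise in the dark. ATL8 (AT1G76410) encodes a membrane-bound ubiquitin ligase of the RING-H2 type, and its transcript is known to rise when sugar is short. AT5G38710 encodes a proline dehydrogenase, a mitochondrial enzyme that begins the oxidation of proline and passes electrons to the respiratory chain.

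The arrays were Affymetrix ATH1 arrays, hybridised with 1 total RNA sample each, from Columbia-0 plants aged 8 days. The lib mutant, named in the study of partial isoleucine deficiency, and the wild type had 3 arrays each, labelled as biological replicates. All plants grew untreated on vertical plates of half-strength salt medium with 1% sucrose, so sugar was supplied to both genotypes. Stratification lasted 2 days, and the plants grew in cycles of 16 h of light and 8 h of dark at 22 to 24 °C. The mutant is known to carry its lesion in OMR1, the threonine deaminase gene, which was not analysed here. Each array gives a MAS5 signal per probe set, deposited on a log2 scale.

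The sample labels name whole seedlings, whereas the series' design text names roots, and this was not settled. The 4 measured shoot markers, of 14 listed, had a summed signal of 1092 to 1492 in lib and of 1658 to 2636 in the wild type, and none was at the floor of the scale. All 4 were on the low side in lib, and LHCB4.1 and RCA passed the test at log2 differences of -0.62 each (limma adjusted p = 0.0376 and 0.0493). The 3 measured root markers, of 12 listed, summed to 13540 to 15630 on lib arrays and 17810 to 21900 on wild type arrays, mostly through PYK10 (-0.47, adjusted p = 0.0393), while EXPA7 (0.20) and EXPA18 (-0.004) did not pass. All 3 measured root markers, and 2 of the 4 measured shoot markers, had a mean signal above the median of all probe sets. Of all probe sets 20.7% passed, and of those above the median 34.1%. The marker calls were not followed over the alternative settings. The dim shoot markers were PRK (27.58 to 79.67 over the 6 arrays) and SBPASE (25.33 to 66.45). The part of a shift in tissue in the results below was not tested. In whole-organ RNA, fewer cells that express a gene and less transcript per cell cannot be told apart.

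ATL8 had signals of 1076, 1380 and 1086 on lib replicates 1, 2 and 3, and of 2772, 3026 and 3723 on wild type replicates 1, 2 and 3. The groups did not overlap: the lowest wild type array was 2.01 times the highest lib array. On the log2 scale the mean was 10.20 ± 0.20 (SD, n = 3) in lib and 11.62 ± 0.22 (SD, n = 3) in the wild type. The fitted log2 difference, lib minus wild type, was -1.42 (SE 0.14), so the signal was 2.685-fold lower in lib.

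AKINBETA1 had signals of 1686, 1876 and 1414 on lib replicates 1 to 3, and of 3839, 3862 and 3435 on the wild type arrays. Here too every lib array lay below every wild type array, and the wild type arrays were close to each other. The mean log2 signal was 10.69 ± 0.21 (SD, n = 3) in lib and 11.86 ± 0.10 (SD, n = 3) in the wild type. The fitted log2 difference was -1.17 (SE 0.12), a 2.25-fold lower signal.

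AT5G38710, the proline dehydrogenase gene, had signals of 58.2, 73.5 and 72.4 on lib replicates 1 to 3, and of 254.5, 292.4 and 285.9 on the wild type arrays. The lowest wild type array was 3.46 times the highest lib array, so the gap between the genotypes was wider than for ATL8 or for AKINBETA1 (1.83 times). The mean log2 signal was 6.08 ± 0.19 (SD, n = 3) in lib and 8.11 ± 0.11 (SD, n = 3) in the wild type. The fitted log2 difference was -2.03 (SE 0.18), a 4.10-fold lower signal. The lib signals lie low on the array scale, and the size of the difference depends on that low end: with log2(signal + 16) the difference was -1.81.

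**Figure D1:**
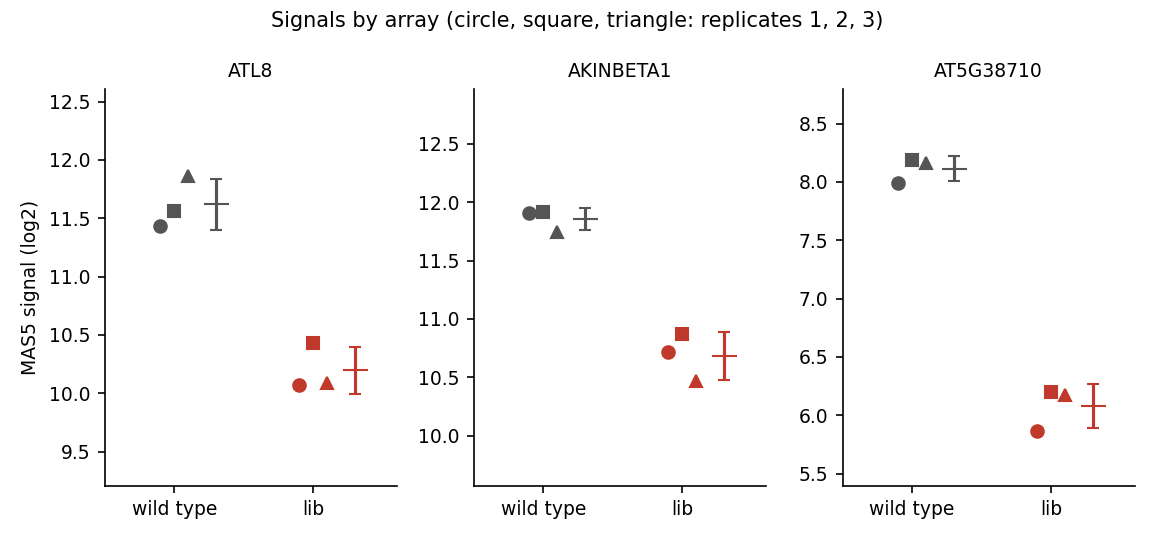
Log2 MAS5 signals of ATL8, AKINBETA1 and AT5G38710 on the 3 wild type arrays (grey) and the 3 lib arrays (red), 1 panel per gene with equal spans of the y axis; the marker shape gives the replicate number and the bar the mean ± SD. In each panel the lib arrays lie below all wild type arrays, with the widest gap for AT5G38710.

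The authors' deposited table gives ratios of mean linear signals, lib over wild type, of 0.372 for ATL8, 0.4468 for AKINBETA1 and 0.245 for AT5G38710. These ratios in the authors' deposited table come from the same 6 arrays.

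Non-overlapping arrays were common in this comparison. Of all 22746 probe sets, 20.2% had every lib array below every wild type array, 8.09% had a fitted log2 difference of -1 or lower, and 4.1% met both. Since the members were chosen for being low in lib, their meeting both is a description. A lower log2 difference than that of AT5G38710 was found for 1.3% of probe sets, than that of ATL8 for 3.87% and than that of AKINBETA1 for 5.95%. The 3 genes thus lay in the lower tail of the distribution, short of its extreme.

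**Figure D2:**
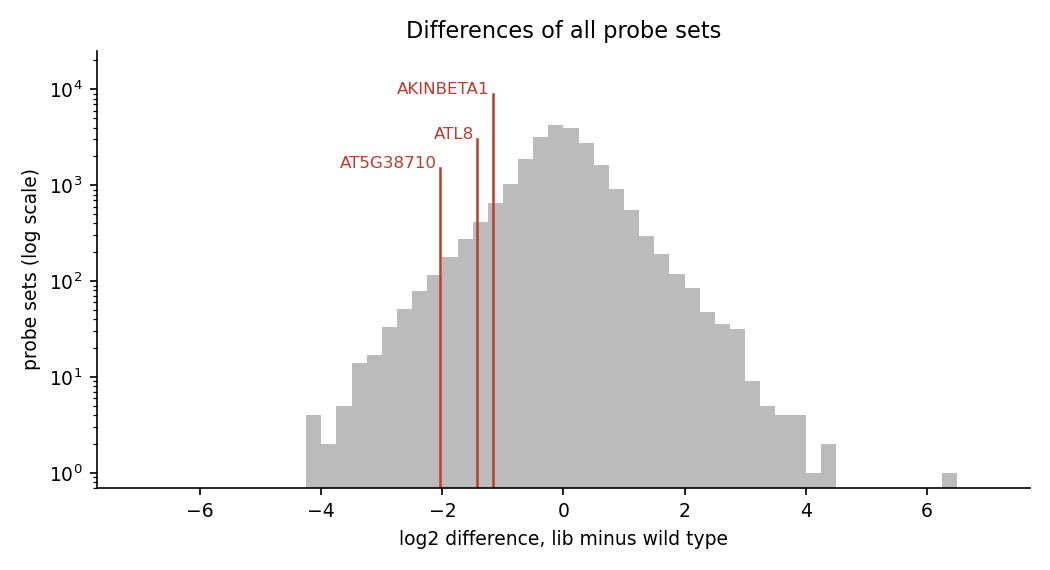
Histogram of the fitted log2 differences, lib minus wild type, of all 22746 probe sets (y axis: number of probe sets on a log scale), with red lines at AT5G38710 (-2.03), ATL8 (-1.42) and AKINBETA1 (-1.17). The lines fall in the lower tail, and 295, 880 and 1353 probe sets had lower values, in that order.

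Among themselves, the 3 genes differed in the size of the difference. Relative to its own wild type mean, AT5G38710 lay at -2.25, -1.92 and -1.94 on lib replicates 1, 2 and 3. ATL8 lay at -1.55, -1.19 and -1.54, and AKINBETA1 at -1.14, -0.98 and -1.39. The lib arrays of AT5G38710 were all lower on this scale than those of ATL8 and AKINBETA1, whereas the ranges of ATL8 and AKINBETA1 overlapped. The 95% interval was -2.44 to -1.63 for AT5G38710, -1.74 to -1.11 for ATL8 and -1.43 to -0.91 for AKINBETA1, so each overlapped its neighbour in this order, and the interval of AT5G38710 lay below that of AKINBETA1.

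Lib replicate 2 had the highest lib signal for all 3 genes. The lowest lib signal was on replicate 1 for ATL8 and AT5G38710 and on replicate 3 for AKINBETA1. In the wild type, replicate 1 was lowest for ATL8 and AT5G38710, and replicate 3 was highest for ATL8 but lowest for AKINBETA1. Over the 6 arrays the Pearson correlation of log2 signals was 0.98 between ATL8 and AT5G38710, 0.96 between AKINBETA1 and AT5G38710 and 0.96 between ATL8 and AKINBETA1. These values are descriptions: both genotypes enter each of them, so the shared difference between the groups sets most of their size.

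By the same measure, and among single-gene probe sets brighter than the median, the genes most like ATL8 were CYP71B37, a cytochrome P450 (r = 0.9997 over 6 arrays), CCS, the copper chaperone of superoxide dismutase (r = 0.9959), and AT1G27100 (r = 0.9957). CYP71B37 followed ATL8 in size as well, with a log2 difference of -1.40 with lib arrays at 330.7 to 411.9 and wild type arrays at 834.3 to 1125. Those most like AKINBETA1 were AT3G61260, of the remorin family of membrane proteins (r = 0.9978), AT2G20920 (r = 0.9975) and AT3G07310 (r = 0.9973), with log2 differences of -0.97, -0.89 and -0.90. Those most like AT5G38710 were AT1G19020 (r = 0.9976), BGLU46, a beta-glucosidase (r = 0.9975), and the kinase gene ATMRK1 (r = 0.9972). Their log2 differences of -1.57, -0.76 and -0.54 were all smaller than that of AT5G38710. Such likeness was frequent: among these 6069 or 6070 probe sets, 298 reached r = 0.95 with ATL8, 355 with AKINBETA1 and 317 with AT5G38710. The members' correlations with each other, given above, were thus exceeded by those of many other genes: 61 of these candidates were closer to ATL8 than AT5G38710 was.

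The genes that surround these 3 were followed in 11 lists, which hold 206 other genes. For 47 of them the annotation names a probe set that belongs to no other gene, and the word measured is kept for these. They were tested in the limma fit over all probe sets, in which a Benjamini-Hochberg adjusted p under 0.05 was called a change. Of the 47 genes, 12 fell, 4 rose and 31 did not pass. The 34.0% that changed stands against 20.7% of all probe sets and 34.1% of the brighter ones, whose mean signal exceeds the median. Of the 36 related genes that are themselves above the median, 14 changed (38.9%), and 10 of these fell. All 5 measured low-energy genes, described below, are among the 10. The lists were chosen with earlier results of these data known, so these counts are descriptions. Over all brighter probe sets 17.3% rose and 16.8% fell.

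The list of genes known to be induced by darkness or sugar shortage had 5 measured genes other than ATL8, from 31 listed. All 5 fell, where 10.3% of all probe sets and 16.8% of those above the median signal did. Their median log2 difference was -0.88, against -0.04 over all probe sets. The test gives each gene's own call and no test of the list. Since the list was chosen with earlier results of these data known, the count of 5 beside these shares is a description. The adjusted p-values of its genes, given below, carry the same limit. The other listed genes, the dark-inducible DIN genes among them, have no probe set of their own in the annotation and were not analysed here. LHCB4.1 and RCA, the shoot markers given above, were lower on the same arrays.

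GAT1_2.1, a glutamine amidotransferase gene, had signals of 642.9, 790.1 and 893.3 on the lib arrays and of 2285, 2094 and 2077 on the wild type arrays. The log2 signal fell by 1.48 (SE 0.12, adjusted p = 0.000162), a difference close to that of ATL8. Its other, dim probe set, at 26.2 to 28.0 on lib arrays and 33.5 to 51.5 on wild type arrays, was also lower in lib but did not pass (adjusted p = 0.293).

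AT2G32150, a hydrolase of the haloacid dehalogenase type, had signals of 2555, 2629 and 3151 in lib and of 6407, 5996 and 5910 in the wild type. It fell by 1.14 (SE 0.11, adjusted p = 0.000259). For both genes replicate 1 was the lowest lib array, as it was for ATL8.

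AT1G18460, a gene of the alpha/beta hydrolase family, fell by 0.88 (SE 0.10, adjusted p = 0.000674), from 577.2 to 653.8 in the wild type to 320.3 to 340.7 in lib. AT3G15450, related to aluminium-induced proteins, fell by 0.56 (SE 0.10, adjusted p = 0.00596), with lib arrays at 9038 to 9710 and wild type arrays at 13240 to 14350. For each of these genes every lib array lay below every wild type array, as for 20.2% of all probe sets, and the arrays of each group were tight.

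AT5G57655, of the xylose isomerase family, had signals of 2427, 2707 and 1932 in lib and of 4933, 4250 and 3081 in the wild type. It fell by 0.78 (SE 0.18, adjusted p = 0.0156) with the widest spread of the list. Its call was lost in 5 of 13 alternative settings, among them those without lib replicate 1, lib replicate 3, wild type replicate 1 or wild type replicate 2 (adjusted p up to 0.0925 over the settings). The other 4 genes passed in all 13.

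**Figure D3:**
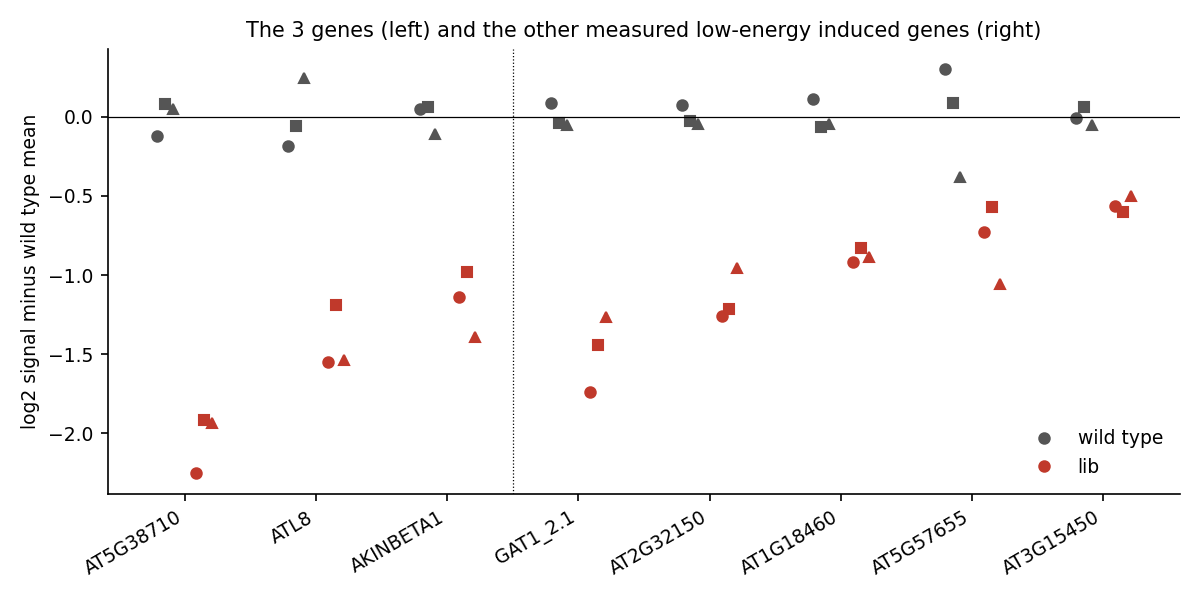
Log2 signal minus the wild type mean of the same gene, on each wild type array (grey) and lib array (red), for AT5G38710, ATL8 and AKINBETA1 on the left of the dotted line and the 5 other measured low-energy induced genes on the right; marker shapes (circle, square, triangle) stand for replicates 1, 2 and 3. Every lib point lies below every wild type point of its gene, as for 20.2% of all probe sets. Group differences run from -2.03 for AT5G38710 to -0.56 for AT3G15450.

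Among the other measured genes of the SnRK1 list, 3 of 11 listed, the gamma-like AT1G15330 fell and both other beta subunits did not pass. The 33.3% called stands beside 20.7% of all probe sets and 34.1% of those above the median, and is no result about the complex. AT4G16360, which encodes the beta subunit KINbeta2, had signals of 685.5, 771.9 and 620.8 in lib and of 641.4, 638.9 and 719.6 in the wild type, and the groups overlapped. Its log2 difference was 0.05 (95% interval -0.20 to 0.30, adjusted p = 0.799).

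AT2G28060, which encodes the short plant beta subunit KINbeta3, had signals of 992.5, 918.8 and 1177 in lib and of 726.9, 930.6 and 652.3 in the wild type. Its log2 difference was 0.43 (95% interval 0.10 to 0.76) and did not pass (adjusted p = 0.0717), but it passed without wild type replicate 2, the highest of its group (adjusted p = 0.0276), and among brighter probe sets alone (adjusted p = 0.0396). Over all its alternatives the adjusted p ran from 0.0276 to 0.207. The intervals of KINbeta2 and KINbeta3 both lie above that of AKINBETA1. Since AKINBETA1 was chosen for its low values in lib, that contrast between subunits is a description, not a test.

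AT1G15330, a protein with CBS domains related to the gamma subunits, fell. Its signals were 90.3, 71.2 and 120.3 in lib and 355.3, 301.0 and 219.5 in the wild type, a log2 difference of -1.64 (SE 0.24, adjusted p = 0.00206). Every lib array lay below every wild type array, as for 20.2% of all probe sets. This gene passed in all 12 alternative settings that kept it. The genes of the catalytic subunits KIN10 and KIN11, of SNF4 and KING1, and of the upstream kinases GRIK1 and GRIK2 have no probe set of their own in the annotation and were not analysed here.

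**Figure D4:**
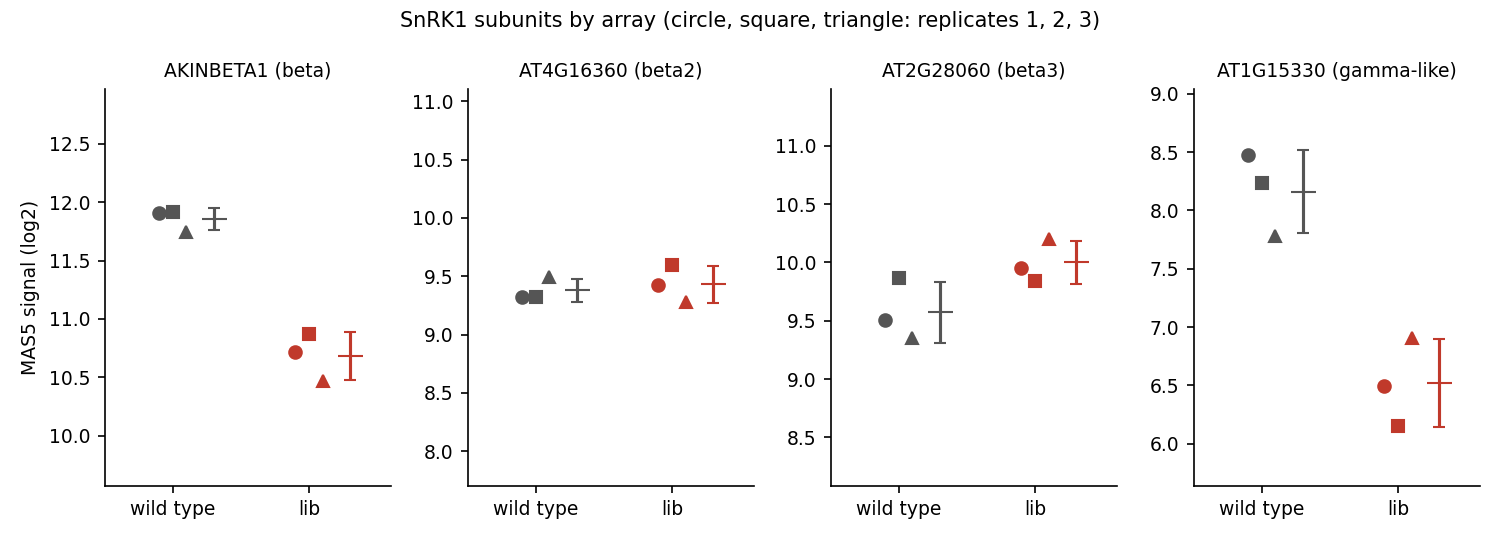
Log2 MAS5 signals of the SnRK1 beta subunit genes AKINBETA1, AT4G16360 (KINbeta2) and AT2G28060 (KINbeta3) and of the gamma-like AT1G15330 on the wild type (grey) and lib (red) arrays, with equal spans of the y axis in each panel and bars for the mean ± SD. AKINBETA1 and AT1G15330 are lower on all lib arrays, as were 20.2% of all probe sets, whereas KINbeta2 and KINbeta3 overlap between the genotypes.

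The FLZ zinc finger proteins, plant adaptors that bind SnRK1 subunits, held genes that rose and genes that fell. Of 12 measured genes, from 17 listed, 2 rose, 2 fell and 8 did not pass, with a median log2 difference of -0.22. AT5G47060 had signals of 1388, 1317 and 1211 in lib and of 493.9, 539.4 and 442.5 in the wild type, and it rose by 1.41 (SE 0.11, adjusted p = 0.000134). AT4G17670 rose by 0.74 (SE 0.18, adjusted p = 0.0184), whereas AT1G78020 was lower at -0.62 (SE 0.14, adjusted p = 0.0155) and AT5G20700 at -0.48 (SE 0.11, adjusted p = 0.0138). AT5G47060 passed in every alternative setting. Instead of 4 genes, 1 passed when the intensity trend was dropped or lib replicate 2 was left out, and 2 passed when wild type replicate 1 or wild type replicate 2 was left out. The 33.3% of the list that changed, with 7 of its 12 genes above the median signal, stands beside 20.7% of all probe sets and 34.1% of those above the median, and is no result about the family. Over all probe sets 10.4% rose and 10.3% fell, and above the median 17.3% rose and 16.8% fell.

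Proline metabolism could be followed in 1 further gene of 12 listed. DELTA-OAT, the ornithine aminotransferase that links ornithine to the proline intermediates, had signals of 605.0, 628.6 and 604.5 in lib and of 736.9, 726.5 and 620.8 in the wild type. At a log2 difference of -0.18 (95% interval -0.41 to 0.05) it did not pass in limma (adjusted p = 0.265, unadjusted p = 0.114). The other proline dehydrogenase, ERD5, and the genes of proline synthesis were not analysed here.

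The transcription factors of the C and S1 groups of bZIP proteins act downstream of SnRK1. BZIP53 is known to activate expression of a proline dehydrogenase gene, and whether it acts on AT5G38710 was not tested here. BZIP53 overlapped between the genotypes, with lib arrays at 2864 to 4507 and wild type arrays at 3131 to 4048, and had a log2 difference of -0.06 (95% interval -0.46 to 0.34, adjusted p = 0.863). The related bZIP44 had signals of 901.8, 1125 and 1804 in lib and of 525.6, 477.4 and 778.9 in the wild type. It rose by 1.08 (SE 0.26, adjusted p = 0.0172), opposite to AT5G38710. That call was lost without the intensity trend, without wild type replicate 1 and without wild type replicate 2 (adjusted p up to 0.1 over the settings). These were the 2 measured genes of 9 listed, both above the median signal, where 34.1% of probe sets changed, against 20.7% of all.

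The ATL family of RING-H2 ubiquitin ligases had 2 measured genes beside ATL8, of 10 further genes listed under such symbols. ATL5 had dim signals of 32.1, 29.7 and 19.1 in lib and of 52.6, 106 and 73.2 in the wild type, and it fell from a mean log2 signal of 6.21 to 4.72 (95% interval of the difference -2.34 to -0.65, adjusted p = 0.0214). It no longer passed when the intensity trend was dropped, or when lib replicate 3, wild type replicate 2 or wild type replicate 3 was left out (adjusted p up to 0.0857). ATL63 overlapped between the genotypes, at 26.8 to 78.2 on lib arrays and 32.3 to 47.4 on wild type arrays, and did not pass (0.16, adjusted p = 0.849). Both ATL5 and ATL63 lie under the median signal, and 20.7% of all probe sets changed.

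Autophagy, the recycling of cell contents that SnRK1 promotes and the TOR kinase restrains, was represented by 17 measured genes of 28 listed. Of these, 1 rose, 1 fell and 15 did not pass, with a median log2 difference of -0.10. The 11.8% that changed is below the 20.7% of all probe sets and the 34.1% of those above the median, where 16 of the 17 lie. ATG8G, one of the ubiquitin-like proteins that coat the autophagosome, rose by 0.74 (SE 0.12, adjusted p = 0.00297), from 416.3 to 536.6 in the wild type to 798.7 to 855.1 in lib. AT2G37840, an autophagy kinase of the ATG1 type, fell by 0.68 (SE 0.12, adjusted p = 0.00449), from 614.1 to 733.0 to 388.8 to 478.1. Its dimmer probe set did not pass (adjusted p = 0.225). The next by p were AT3G61960, another ATG1-type kinase, at -0.49 (adjusted p = 0.0796) and AT5G50230, an ATG16-type protein, at -0.24 (adjusted p = 0.0893).

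Of the TOR pathway, RAPTOR1 and RAPTOR2, which bring substrates to the TOR kinase, were the 2 measured genes of 10. Neither passed in limma, at -0.45 (adjusted p = 0.103, unadjusted p = 0.0285) and 0.53 (adjusted p = 0.276, unadjusted p = 0.121). In the list of sugar sensing, sucrose and starch use, 2 of 3 measured genes, from 25 listed, fell, where 10.3% of all probe sets and 16.8% of those above the median did. DPE1, the plastid enzyme that rearranges the short glucans left by starch breakdown, fell by 0.72 (SE 0.14, adjusted p = 0.00756), with lib arrays at 231.0 to 280.0 and wild type arrays at 355.0 to 465.5. PWD, a dikinase that phosphorylates starch for its breakdown, was lower at -0.48 (SE 0.14, adjusted p = 0.0440), a call lost in 7 of 13 settings (adjusted p up to 0.145), including those without any single lib array, without wild type replicate 1 and without wild type replicate 3. AMY1, an alpha-amylase, was dim at 15.9 to 43.3 on the 6 arrays and did not pass (-0.59, adjusted p = 0.409). The lists of trehalose metabolism (22 genes) and of SnRK2 and CIPK kinases (31 genes) had no measured gene.

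**Figure D5:**
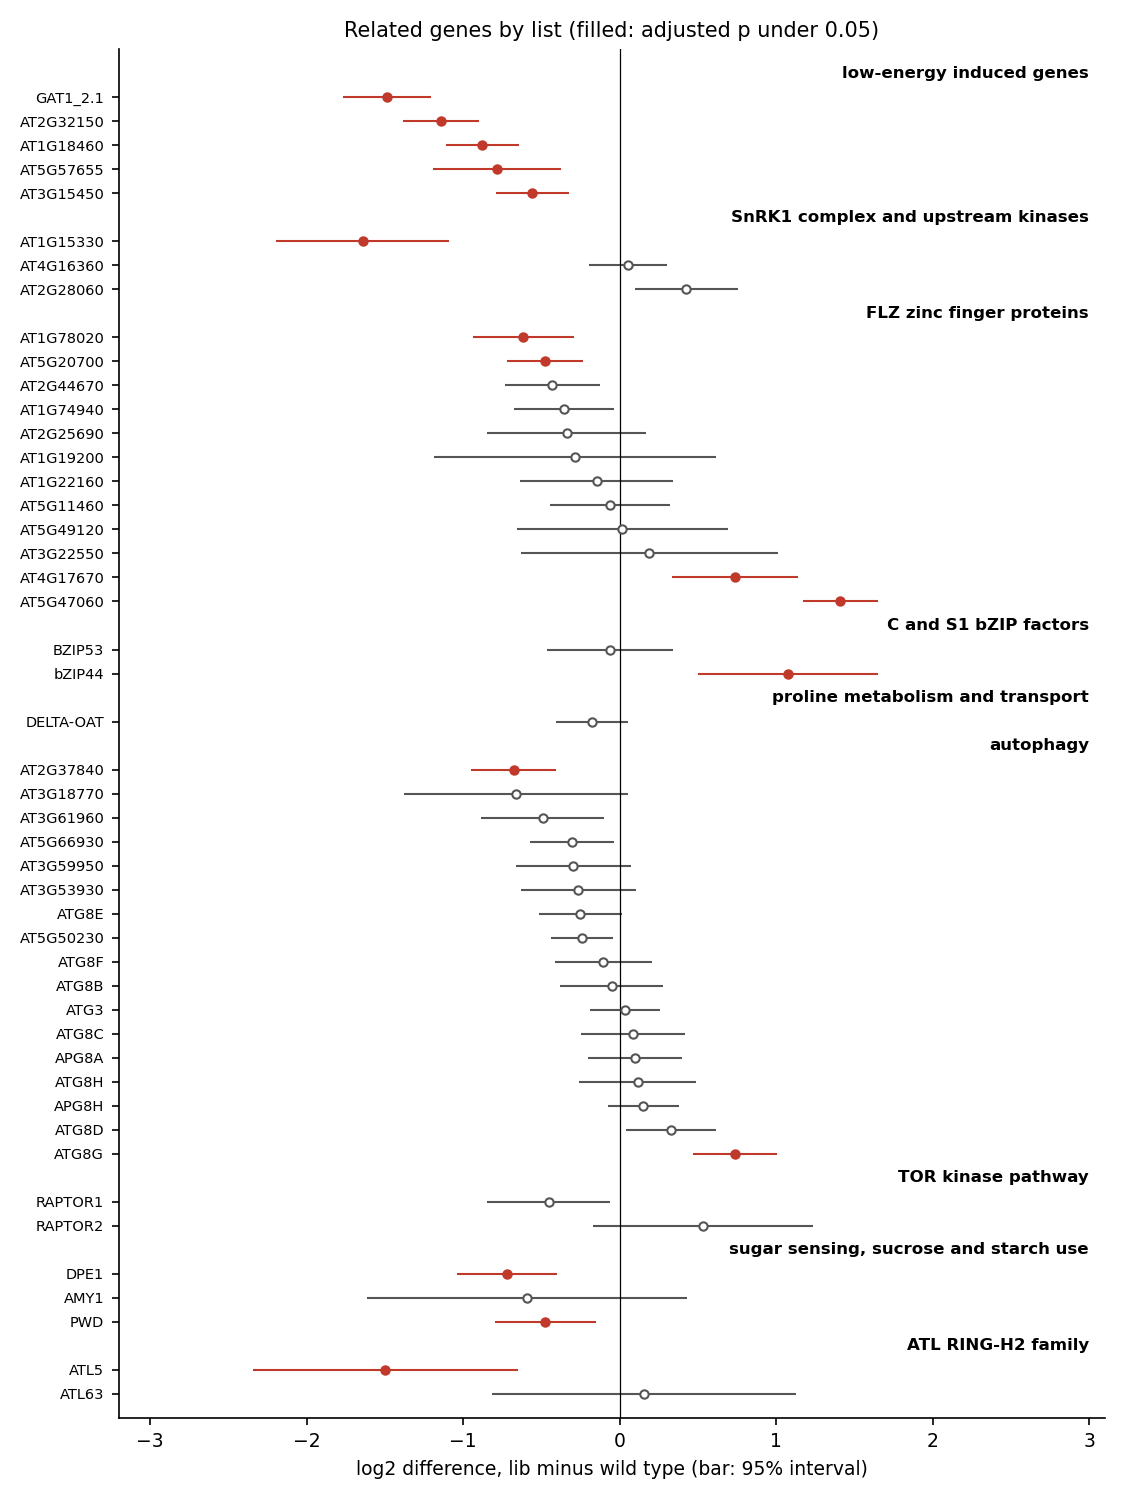
Fitted log2 differences, lib minus wild type (x axis), with 95% intervals for the 47 measured related genes (y axis), grouped by list; filled red points passed at a limma adjusted p under 0.05 and open grey points did not. All 5 measured low-energy induced genes lie left of 0, as do the 3 of the sugar and starch list and the 1 of the proline list. The FLZ and autophagy lists hold points on both sides. The lists were chosen with earlier results of these data known.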

How the data were processed

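ATH1 arrays of 3 lib and 3 wild type samples were compared. The authors deposited log2 signals, and the submitters' processing notes name MAS5 without a version. All arrays share a trimmed mean signal of 496, and 405 to 734 probe sets per array stood at a log2 of 0, so dim probe sets scatter widely. The authors' deposited table holds, per probe set, a p-value with no adjustment and a lib over wild type ratio, and only the ratios are given here. The deposited log2 values were used without further normalization.

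The platform annotation gave 13513 probe sets 1 gene, 503 several and 8730 none; 13436 were tied to a locus of the TAIR10.1 gene table. A gene with several probe sets was represented by the brightest. limma 3.58.1 in R 4.3.3 (lmFit, eBayes with intensity trend, 2-sided) was fitted to all probe sets, with Benjamini-Hochberg adjustment. It was tested on simulated data, in which it called 84% of changes of 1 on the log2 scale among bright probe sets and 100% of changes of 2. Precision is limited by having 3 arrays in each group. The labels call the replicates biological without naming separate cultures.

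The members and lists were chosen with earlier results of these data known. The text names the members, every measured gene of the SnRK1, low-energy and proline lists, the 4 genes of smallest p in each other list, and the 3 genes most like each member in pattern. The ATL list was collected by symbol and holds a ribosomal protein gene that shares the symbol ATL5 and was not measured. The alternatives were eBayes without trend, quantile normalization, median centring, log2(signal + 16), only probe sets above the median, array weights, the replicate number as a block, another probe set per gene, and each array left out in turn.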

Additional observations from a re-analysis of the deposited data

How the results depend on the processing

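The log2 differences of the 3 members stayed negative in all alternatives run, from -1.54 to -1.30 for ATL8, -1.26 to -1.06 for AKINBETA1 and -2.10 to -1.81 for AT5G38710. The smallest difference of AT5G38710 was with log2(signal + 16). Its mean signal lies under the median, so the setting above the median leaves it out. With single arrays left out the ranges were -1.54 to -1.30, -1.26 to -1.06 and -2.10 to -1.93. None of the 16 called related genes changed direction, and 9 kept their call in every alternative. Of the 31 uncalled ones, 11 took both signs over the alternatives, ATL63, BZIP53 and AT4G16360 among them. Above the median AT1G15330 was not kept, and KINbeta3 was the gene called in the SnRK1 list. The 4708 probe sets called became 2383 without the intensity trend and 2705 to 3747 with single arrays left out, lowest without lib replicate 1. Without the trend the calls were 1 in the FLZ list, 0 in the bZIP list, 1 in the sugar and starch list and 0 in the ATL list. With single arrays left out they were 1 to 4, 0 to 1, 1 to 2 and 0 to 1 in these lists, 4 to 5 among low-energy genes and 1 to 2 in the SnRK1 list. Same-numbered arrays showed no sign of pairing: their deviations were correlated at 0.05, -0.20 and -0.23, and those of other pairs at -0.12 to 0.25. With 3 arrays per group these values do not settle whether the samples were handled in pairs. With the replicate block 3442 probe sets were called, and 1 gene in the sugar and starch list, and no other list count moved by over 1.5 times. Background correction could not be varied beyond the offset, since the deposited values are summarised signals.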
